A study of Mus musculus with 8 samples.

Results

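The G1 cyclins, CDK inhibitors and Myc are 10 genes of the growth-factor-driven entry into the cell cycle: the D-type cyclins Ccnd1, Ccnd2 and Ccnd3, their kinases Cdk4 and Cdk6, the inhibitors Cdkn1a, Cdkn1b and Cdkn2c, the pocket protein gene Rb1 and the transcription factor gene Myc. They were chosen by symbol, as genes tied to the proliferative response to macrophage colony-stimulating factor (M-CSF), and all 10 were found among the 11541 genes counted. The data are mRNA sequencing libraries (RNA-seq) of mouse bone marrow-derived macrophages, 4 labelled Ogfrl1 knockout (KO) and 4 labelled Ogfrl1 wild type (WT). Every culture, KO and WT alike, was expanded from non-adherent marrow cells with 25 ng/mL M-CSF over 4 days, and no culture without M-CSF is part of the comparison. The labels give neither the allele design, strain, age nor sex of the mice, and they do not say whether each library is a separate animal. The p-values therefore reflect only how far these libraries vary, which can include technical variation.

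M-CSF acts through its receptor tyrosine kinase to keep macrophages alive and dividing. In G1, mitogen signals raise D-type cyclins, which bind Cdk4 or Cdk6 and phosphorylate the Rb protein, and this frees E2F transcription factors to switch on genes of DNA synthesis. The INK4 proteins, among them the product of Cdkn2c, bind the kinases directly, while the Cip/Kip proteins encoded by Cdkn1a and Cdkn1b block cyclin E complexes and also help D-type complexes to assemble. Myc is an early target of growth factor signalling and, with its partner Max, binds E-box sequences in the promoters of growth genes.

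Cdk4 is a known target of Myc in human and mouse cells. The RefSeq starts of the kinase genes are therefore shown with the E-box CACGTG in capitals. This motif reads the same on both strands. The windows run from 250 bases before to 50 bases after the RefSeq start (GRCm38.p6, which is mm10), 5′ to 3′ on the plus strand, at chr10:127063285-127063584 for Cdk4 and chr5:3343643-3343942 for Cdk6.
Cdk4: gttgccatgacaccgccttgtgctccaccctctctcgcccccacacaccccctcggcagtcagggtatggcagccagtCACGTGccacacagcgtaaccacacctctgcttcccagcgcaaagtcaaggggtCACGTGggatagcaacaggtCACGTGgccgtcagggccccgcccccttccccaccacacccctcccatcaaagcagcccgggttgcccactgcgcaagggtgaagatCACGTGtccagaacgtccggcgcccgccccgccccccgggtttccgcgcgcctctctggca
Cdk6: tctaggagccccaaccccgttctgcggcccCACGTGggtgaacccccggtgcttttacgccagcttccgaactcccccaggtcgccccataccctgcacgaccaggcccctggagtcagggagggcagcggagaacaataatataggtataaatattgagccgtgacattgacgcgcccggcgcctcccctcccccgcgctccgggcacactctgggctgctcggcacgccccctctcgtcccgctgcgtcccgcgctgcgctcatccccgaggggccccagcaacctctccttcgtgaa
The Cdk4 window holds 4 copies, beginning at positions -172, -118, -98 and -11 from the start, and the Cdk6 window holds 1, at -220. Over 32851 promoter windows of 300 bases, 2349 (7.15%) had at least 1 copy and 8 (0.0244%) had at least 4. Windows were matched for 6 of the 10 genes, 9 windows in all. One of the 2 Cdkn2c windows had 1 copy, 34 bases after the start, and the windows of Cdkn1b, Cdkn1a and Ccnd3 had none. The counted gene models of Cdk4 and Cdk6 begin past the ends of these windows, at 127063603 and 3344312, so they place the starts differently from RefSeq. A match describes the letters and is not evidence of binding.

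None of the 10 genes passed the test between the genotypes. edgeR's quasi-likelihood test called 0 of the 10 at an adjusted p under 0.05, where 0% of all 11541 genes were called. The lowest adjusted p was 0.404, for the 10 genes and for the whole table alike. At an unadjusted p under 0.05 there were 0 of the 10, against 6.52% of all genes. The KO and WT values overlapped in all 10 genes, and they did not overlap in 2.64% of all genes. The log2 fold change of KO over WT was positive in 5 and negative in 5, with a median of 0.0099, and the median over all genes was -0.0047. The 95% confidence interval lay within a 2-fold change for all 10 and within a 1.5-fold change for 8, where it did so for 90.5% and 60.3% of all genes. In bulk RNA a lower value can come from fewer cells of a type or from less RNA per cell, and these cannot be told apart.

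**Figure D1:**
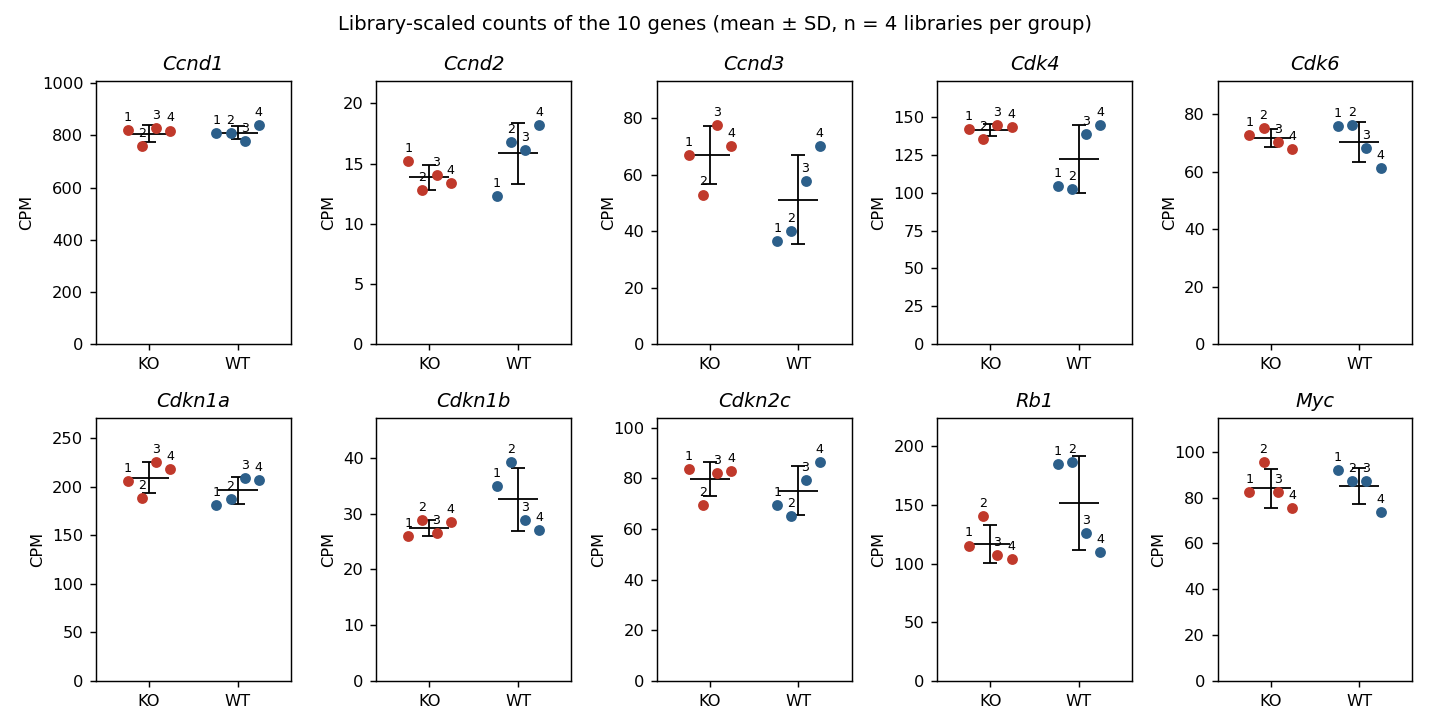
Counts scaled to library size (CPM) of the 10 genes, 1 panel per gene with its own axis from 0. Each point is 1 library with its replicate number, KO on the left and WT on the right, and bars give mean ± SD of 4 libraries. KO and WT points overlap in every panel, and WT replicates 1 and 2 lie together away from the rest for Ccnd3, Cdk4, Cdkn1b and Rb1.

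WT replicates 1 and 2 stood apart from the other 6 libraries over the whole table, and this touches most results below. In a principal component analysis of log2 CPM they scored 42.9 and 37.1 on the leading component, which carried 70.8% of the variance, and the others scored between -24.6 and 7.26. Their ribosomal RNA reads were 1.79 and 1.83%, against 2.71 to 9.1% in the others, their mitochondrial reads 6.07 and 7.03%, against 1.49 to 3.17%, and their uniquely mapped reads 76.4 and 75.8%, against 83.8 to 87%. Total counts ran from 47779990 to 53567289 in KO and from 39601341 to 61556269 in WT. Ogfrl1 itself had 146 to 197 CPM in KO and 135 to 284 CPM in WT, so whole-gene counts did not check the labels. All 10 macrophage markers looked for were present, with a summed level of 20980 to 22660 CPM in KO and 18800 to 21680 CPM in WT. None of the 5 B cell, 5 T and NK cell or 5 erythroid markers was among the rows. Neutrophil markers (9 of 10 present) summed to 273 to 309 CPM in KO and 316 to 352 CPM in WT, stromal markers (5 of 8) to 22.7 to 90.02 CPM and 11.9 to 124 CPM (Dcn, Lum and Pdgfra were not among the rows), and progenitor markers (6 of 8) to 29.2 to 42.2 CPM and 33.5 to 39.5 CPM. Their part in the results was not tested.

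Ccnd1, encoding cyclin D1 (chromosome 7, 144929931 to 144939925, mm10), was the most abundant of the 10 genes and the steadiest. KO replicates 1 to 4 had 819, 757, 829 and 818 CPM, and WT replicates 1 to 4 had 809, 808, 779 and 839.9 CPM. The highest library was only 1.11-fold above the lowest, and the KO values lay almost wholly inside the WT range apart from the lower KO replicate 2. Its means were 806 ± 32.8 CPM in KO and 809 ± 24.7 CPM in WT (SD, n = 4). The log2 fold change was -0.0054 (SE 0.063, 95% CI -0.15 to 0.14, edgeR adjusted p = 0.957), so the interval ran from a ratio of 0.902 to one of 1.10. Its SD of log2 CPM over the 8 libraries was 0.049, smaller than in all but 2.17% of genes, and the median over genes was 0.22. Each library held at least 30971 Ccnd1 reads.

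Ccnd3, encoding cyclin D3 (chromosome 17, 47505051 to 47599688), was the most variable. It had 66.9, 53, 77.7 and 70.01 CPM in KO replicates 1 to 4, against 36.5, 40.1, 57.95 and 70.1 CPM in WT replicates 1 to 4. WT replicates 1 and 2 were the lowest of all, and WT replicate 4 was level with KO replicate 4. The mean was 66.9 ± 10.3 CPM in KO and 51.2 ± 15.7 CPM in WT (SD, n = 4). Their log2 fold change was 0.38 (SE 0.21, 95% CI -0.10 to 0.87, edgeR adjusted p = 0.404). Without WT replicates 1 and 2 it was 0.063 (95% CI -0.29 to 0.41), and after a correction for transcript GC content 0.16 (95% CI -0.03 to 0.35). Ccnd3 shares 358 exonic bases with Bysl on the opposite strand, and the strand setting of the counting is not given in the sources used here, so some of its reads may belong to Bysl.

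Ccnd2, encoding cyclin D2 (chromosome 6, 127125709 to 127151048), was the least abundant. Values were 15.2, 12.8, 14.1 and 13.4 CPM in KO replicates 1 to 4 and 12.3, 16.8, 16.1 and 18.2 CPM in WT replicates 1 to 4. WT replicate 1 held the lowest value and the other WT libraries the 3 highest. The means were 13.9 ± 1.04 CPM in KO and 15.9 ± 2.52 CPM in WT (SD, n = 4), and the log2 fold change was -0.19 (SE 0.13, 95% CI -0.48 to 0.095, edgeR adjusted p = 0.404). It was -0.31 without WT replicates 1 and 2 (95% CI -0.54 to -0.07, edgeR unadjusted p = 0.0173, adjusted p = 1), and WT replicate 1 alone among those 2 libraries lay low.

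Per length, cyclin D1 made up most of the D-type cyclin transcript in both genotypes. From the authors' log2 FPKM values (fragments per kilobase, scaled to library size), Ccnd1 took 87, 88.6, 85.6 and 86.6% of the summed FPKM of the 3 genes in KO replicates 1 to 4, against 92.1, 91.1, 87.8 and 86.6% in WT replicates 1 to 4. Ccnd3 took 10.4 to 13.5% in KO and 6.99 to 12.1% in WT. Ccnd2 took 0.935 to 1.07% in KO and 0.924 to 1.25% in WT. The sum itself was 244 ± 13.2 FPKM in KO and 239 ± 11.3 FPKM in WT (SD, n = 4). WT replicates 1 and 2 had the 2 highest Ccnd1 shares and the 2 lowest Ccnd3 shares, and the sum lay between 225 and 255 FPKM in all 8 libraries.

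**Figure D2:**
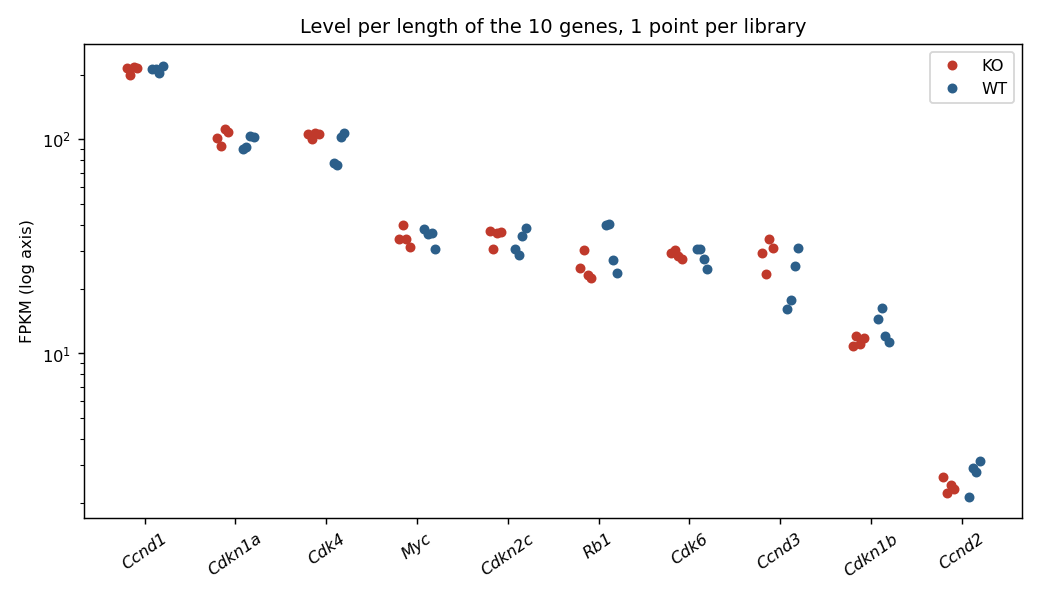
Level per length (FPKM, log axis, from the authors' log2 FPKM) of the 10 genes, ordered by their mean. Each point is 1 library, KO left and WT right within a gene. Ccnd1 lies between 199.5 and 221 FPKM in every library, and Ccnd2 between 2.14 and 3.16 FPKM.

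Across the 10 genes the FPKM levels formed steps. Ccnd1 stood alone at the top with a mean of 213 FPKM over the 8 libraries, above 97.9% of all genes. Cdkn1a (89.8 to 112 FPKM) and Cdk4 (75.9 to 108 FPKM) overlapped below it. Myc (30.7 to 39.9 FPKM), Cdkn2c (29.0 to 38.4), Rb1 (22.5 to 40.5), Cdk6 (24.9 to 30.9) and Ccnd3 (16.2 to 34.4) formed a middle group in which each gene's range overlapped that of its neighbours. Cdkn1b (10.8 to 16.4 FPKM) met only the lowest Ccnd3 library, and Ccnd2 lay below every other gene. These levels use the gene lengths of the deposited table, 3796 bases for Ccnd1, 5771 for Ccnd2 and 2470 for Cdk6, and would shift if a shorter or longer transcript were the one made.

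Of the kinases, Cdk4 (chromosome 10, 127063603 to 127067282) separated the 2 unusual WT libraries cleanly from the rest. It had 142, 135, 145 and 143 CPM in KO replicates 1 to 4, against 104, 102, 139 and 145 CPM in WT replicates 1 to 4. The KO libraries and WT replicates 3 and 4 lay together, and only WT replicates 1 and 2 were lower. Means of 141 ± 4.13 CPM in KO and 122 ± 22.4 CPM in WT (SD, n = 4) gave a log2 fold change of 0.21 (SE 0.12, 95% CI -0.07 to 0.49, edgeR adjusted p = 0.404), which became -0.0041 without those libraries (95% CI -0.14 to 0.14).

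Cdk6 (chromosome 5, 3344312 to 3522225), the other D-cyclin kinase, varied little. KO replicates 1 to 4 had 72.8, 75.3, 70.4 and 67.9 CPM, and in WT replicates 1 to 4 it reached 75.7, 76.2, 68.2 and 61.3 CPM. Both ends of the range belonged to WT libraries. The means were 71.6 ± 3.18 CPM in KO and 70.4 ± 7.05 CPM in WT (SD, n = 4). The log2 fold change was 0.025 (SE 0.085, 95% CI -0.17 to 0.22, edgeR adjusted p = 0.845), and it was 0.14 without WT replicates 1 and 2. After the GC correction it was 0.15 (95% CI 0.057 to 0.25, unadjusted p = 0.00598, edgeR adjusted p = 0.541). Per length, Cdk4 exceeded Cdk6 in every library, 3.30 to 3.87-fold in KO and 2.46 to 4.33-fold in WT, with WT replicates 1 and 2 at 2.53 and 2.46-fold.

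Among the inhibitors, Cdkn1a, encoding p21 (chromosome 17, 29090986 to 29100722), was the most abundant. It had 206, 189, 226 and 218 CPM in KO replicates 1 to 4, against 182, 187, 209 and 207 CPM in WT replicates 1 to 4. The 2 highest values were KO and the 2 lowest WT, with overlap between. The means were 209.7 ± 16.4 CPM in KO and 196 ± 13.8 CPM in WT (SD, n = 4). This gave a log2 fold change of 0.095 (SE 0.082, 95% CI -0.092 to 0.28, edgeR adjusted p = 0.464), which turned to -0.095 after the GC correction and was 0.011 without WT replicates 1 and 2.

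Cdkn1b, encoding p27 (chromosome 6, 134920401 to 134925525), had the smallest edgeR p of the 10 genes. That of Rb1 was close to it (edgeR unadjusted p = 0.0765), and Rb1 had the smallest p in the authors' deposited comparison. Cdkn1b values were 25.9, 28.9, 26.6 and 28.5 CPM in KO replicates 1 to 4, and 34.9, 39.4, 28.9 and 27.1 CPM in WT replicates 1 to 4. WT replicates 1 and 2 were above all others, while WT replicates 3 and 4 sat among the KO libraries. With 27.5 ± 1.43 CPM in KO and 32.6 ± 5.61 CPM in WT (SD, n = 4), the log2 fold change was -0.245 (SE 0.12, 95% CI -0.52 to 0.031, unadjusted p = 0.0757, edgeR adjusted p = 0.404), and without those libraries it was -0.029. Per length, Cdkn1a exceeded Cdkn1b 7.74 to 10.1-fold in KO and 5.65 to 9.05-fold in WT.

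Cdkn2c, encoding the INK4 protein p18 (chromosome 4, 109660876 to 109666756), had 83.8, 69.5, 81.9 and 82.9 CPM in KO replicates 1 to 4, against 69.3, 65.3, 79.4 and 86.6 CPM in WT replicates 1 to 4. KO replicate 2 lay with WT replicates 1 and 2, and the other 5 libraries lay together. The means were 79.5 ± 6.74 CPM in KO and 75.1 ± 9.66 CPM in WT (SD, n = 4). This gave a log2 fold change of 0.081 (SE 0.11, 95% CI -0.16 to 0.32, edgeR adjusted p = 0.612), and its sign turned to -0.062 without WT replicates 1 and 2 and to -0.21 after the GC correction (95% CI -0.39 to -0.029, unadjusted p = 0.0278, edgeR adjusted p = 0.541).

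Rb1 (chromosome 14, 73195502 to 73325791), the target of the cyclin D kinases and the brake on E2F, had 115.5, 141, 108 and 104 CPM in KO replicates 1 to 4, against 185, 187, 126 and 109.7 CPM in WT replicates 1 to 4. WT replicates 1 and 2 were the highest by a wide margin and WT replicate 4 lay among the KO libraries. The mean was 117 ± 16.5 CPM in KO and 152 ± 40.0 CPM in WT (SD, n = 4). The log2 fold change was -0.38 (SE 0.19, 95% CI -0.80 to 0.049, edgeR adjusted p = 0.404), and without WT replicates 1 and 2 it was -0.0098 (95% CI -0.31 to 0.29).

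Myc (chromosome 15, 61985341 to 61990361) had 82.6, 95.7, 82.5 and 75.4 CPM in KO replicates 1 to 4, against 91.9, 87.1, 87.2 and 73.7 CPM in WT replicates 1 to 4. The highest library was KO and the lowest WT. Means of 84.03 ± 8.49 CPM in KO and 84.96 ± 7.85 CPM in WT (SD, n = 4) gave a log2 fold change of -0.016 (SE 0.098, 95% CI -0.24 to 0.21, edgeR adjusted p = 0.918), which was 0.063 without WT replicates 1 and 2 and -0.17 after the GC correction.

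**Figure D3:**
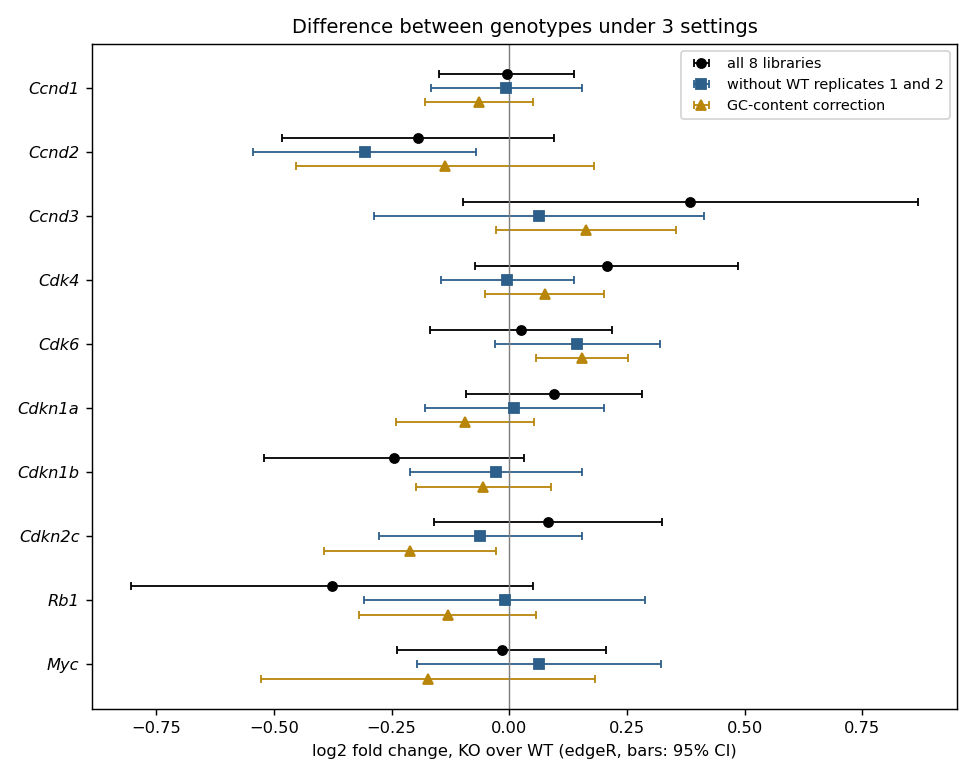
Log2 fold change of KO over WT for the 10 genes, from edgeR, with 95% confidence intervals (bars). Circles use all 8 libraries, squares leave out WT replicates 1 and 2, and triangles apply a correction for transcript GC content. Every interval drawn with a circle includes 0. Among the circles Ccnd3 (0.38) and Rb1 (-0.38) lie farthest from 0, but near it without WT replicates 1 and 2 (0.063 and -0.0098). After the GC correction the intervals of Cdk6 (0.057 to 0.25) and Cdkn2c (-0.39 to -0.029) exclude 0 (edgeR adjusted p = 0.541 for each). That of Ccnd2 without WT replicates 1 and 2 (-0.54 to -0.07) does so too. Over the whole table, 723 genes had an edgeR unadjusted p under 0.05 after the GC correction. Without WT replicates 1 and 2 there were 115, and both settings called 0 genes.

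The same pair of WT libraries stood apart in most of the 10 genes, as it did in most genes of the whole table. Both lay below the other 6 libraries for 4 genes (Ccnd3, Cdk4, Cdkn1a and Cdkn2c) and above them for 3 (Cdk6, Cdkn1b and Rb1), 7 of 10 together, where 70.2% of all genes did one or the other. The 4 low genes had transcript GC contents of 56.7, 53.3, 54.4 and 58.0%, and the 3 high genes 45.1, 43.1 and 41.2%, beside a median of 49.4% over all genes. Ccnd1 (50.9%), Ccnd2 (47.1%) and Myc (53.3%) did not separate the pair. This was counted after the libraries were seen to stand apart and carries no test.

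**Figure D4:**
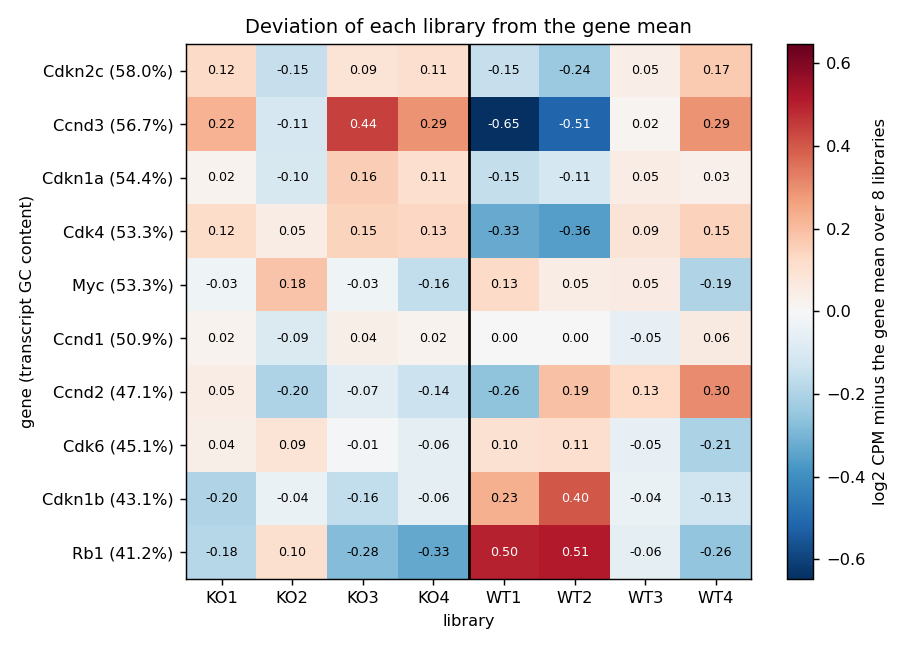
Deviation of each library's log2 CPM from the gene's mean over 8 libraries, with genes ordered by the GC content of their transcript (in brackets) and KO libraries left of WT. WT1 and WT2 are low for Ccnd3 and Cdk4 and high for Cdkn1b and Rb1, and the row of Ccnd1 stays near 0 in all 8 libraries.

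For each gene, the other gene whose centred log2 CPM profile over the 8 libraries was nearest is given by its root-mean-square difference (in log2 units). Rb1 had Phf3 at 0.014, where Rb1 itself deviated by 0.32 from its mean. Ccnd3 had Mfsd10 at 0.032 against a deviation of 0.37, Cdk4 had Dcaf11 at 0.019 against 0.20, and Cdkn2c had Dstyk at 0.018 against 0.14. The nearest genes were Hadhb for Ccnd1 (0.019 against a deviation of only 0.046), Hivep2 for Cdk6 (0.030 against 0.0997) and Kdm2b for Cdkn1a (0.027 against 0.105). Eif5a2 was nearest to Cdkn1b (0.046 against 0.196) and Itsn1 to Myc (0.029 against 0.122). Enc1 was nearest to Ccnd2 (0.085 against 0.186), the largest difference of the 10. Phf3 had means of 141 CPM in KO and 183 CPM in WT. It was picked for its nearness to Rb1 over these same libraries, so its direction follows from that choice. None of the 10 genes was the nearest profile of another.

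Other genes of the G1 pathway were read from 9 lists, of which no member was called, so 0 of each list rose and 0 fell by the edgeR test. Over all genes 49.2% had a positive log2 fold change, with a median of -0.0047. Without WT replicates 1 and 2 the median was -0.00098, and the positive share over all genes was not counted. Genes of a list come from the same libraries, so their signs are not independent and the counts carry no test. Partners acting after the D-type cyclins were cyclins E, A and B with their kinases and activators. Their log2 fold change was positive in 2 of 10 (median -0.13), and in 2 of 10 without WT replicates 1 and 2 (median -0.052). The 3 with the smallest p were Ccnh, Mnat1 and Cdk7, the subunits of the CDK-activating kinase. Ccnh had 34.7 ± 2.42 CPM in KO and 44.5 ± 8.79 CPM in WT, Mnat1 18.2 ± 2.23 and 22.3 ± 3.62 CPM, and Cdk7 32.97 ± 1.76 and 36.5 ± 1.74 CPM (SD, n = 4). Their log2 fold changes of -0.36, -0.29 and -0.15 were -0.095, -0.097 and -0.10 without WT replicates 1 and 2. Of 14 pocket proteins and E2F factors, 4 were positive (median -0.11). Without WT replicates 1 and 2, 8 of the 14 were positive (median 0.021). Lin9, a subunit of the DREAM and MuvB complexes, had 38.7 ± 5.98 CPM in KO and 51.2 ± 13.4 CPM in WT, the Rb relative Rbl2 62.5 ± 5.87 and 72.9 ± 10.8 CPM, and the repressor E2f8 92.9 ± 12.1 and 113 ± 23.5 CPM. Their log2 fold changes of -0.40, -0.22 and -0.28 were -0.058, -0.044 and -0.018 without those libraries. Of the 16 genes of cyclin and inhibitor turnover, 3 were positive (median -0.13), and 6 without WT replicates 1 and 2 (median -0.016). Smallest in p were the ubiquitin ligase scaffolds Cul4b at -0.41 and Cul1 at -0.28 and the adaptor Skp1a at -0.16, which were -0.033, -0.057 and -0.044 without those libraries.

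Of 5 other CDK inhibitors, the 3 with the smallest p are named, and all 3 were low. The levels of Cdkn2d and Cdkn3 are not given here. Cdkn2a, whose locus encodes both an INK4 inhibitor and the p53 activator Arf, had 1.28 ± 0.25 CPM in KO and 0.734 ± 0.202 CPM in WT. This gave a log2 fold change of 0.78 (SE 0.24, unadjusted p = 0.0105, edgeR adjusted p = 0.404), and it was 0.52 without WT replicates 1 and 2. Cdkn1c, the third Cip/Kip gene, had 0.899 ± 0.146 CPM in KO and 1.11 ± 0.156 CPM in WT, and Cdkn2b 4.04 ± 0.49 and 3.69 ± 0.39 CPM. Without WT replicates 1 and 2 the log2 fold changes of Cdkn1c and Cdkn2b were -0.26 and 0.27, in place of -0.30 and 0.13. In this list 3 of 5 were positive (median 0.13), and 3 of 5 without those libraries (median 0.024). Whole-gene counts do not separate the 2 products of Cdkn2a.

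Around Myc, 9 of 14 network genes were positive (median 0.13), and 7 without WT replicates 1 and 2 (median 0.0011). The named genes were Mxd3, a Max partner that opposes Myc, at 3.76 ± 0.65 CPM in KO and 2.93 ± 0.56 CPM in WT, the coactivator Trrap at 194.5 ± 7.04 and 178 ± 10.3 CPM, and the chromatin remodeller Bptf at 207 ± 22.6 and 246 ± 45.2 CPM (SD, n = 4). Their log2 fold changes of 0.36, 0.13 and -0.25 were 0.18, 0.063 and -0.0045 without those libraries. Mycn and Mycl were not among the rows. Myc target genes went both ways, 10 of 20 positive (median -0.0073, Cdk4 in the list) and 8 without WT replicates 1 and 2 (median -0.0051). The named genes were the spermidine synthase Srm at 52.1 ± 1.96 CPM in KO and 45.6 ± 2.94 CPM in WT, and the nucleolar genes Nop58 at 115.5 ± 9.58 and 145 ± 28.2 CPM and Ncl at 972 ± 146 and 1319 ± 353 CPM. Without those libraries the log2 fold changes of these 3 were 0.13, -0.066 and -0.066, in place of 0.19, -0.33 and -0.44.

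E2F target genes were divided as well, 10 of 21 positive (median -0.018), and 9 without WT replicates 1 and 2 (median -0.012). The named genes were Ccne2, a cyclin E gene, at 91.7 ± 9.51 CPM in KO and 117 ± 28.5 CPM in WT, the replication licensing gene Cdt1 at 69.8 ± 9.54 and 54.7 ± 13.1 CPM and the polymerase gene Pola1 at 110.5 ± 11.9 and 133 ± 27.0 CPM (SD, n = 4). Their log2 fold changes of -0.35, 0.35 and -0.26 were -0.012, 0.092 and 0.0086 without those libraries, so the sign of Pola1 turned. Cdkn1a is itself a target of p53, and of 18 other genes of that pathway 10 were positive (median 0.066), and 14 without WT replicates 1 and 2 (median 0.024). Trp53 itself, entered in that list, had 87.9 ± 6.39 CPM in KO and 72.9 ± 8.95 CPM in WT, the pro-apoptotic gene Bbc3 4.43 ± 1.41 and 2.32 ± 1.30 CPM, and the stress cytokine gene Gdf15 8.08 ± 2.16 and 4.93 ± 2.03 CPM. Their log2 fold changes of 0.27, 0.91 and 0.70 were 0.13, 0.41 and 0.31 without WT replicates 1 and 2, and the edgeR adjusted p was 0.404 for each with all libraries.

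From the M-CSF receptor to G1, 17 of 25 signalling genes were positive (median 0.11), and 19 without WT replicates 1 and 2 (median 0.028). Foxo3, a transcription factor that activates Cdkn1b and is itself held in check by Akt, had 32.3 ± 2.83 CPM in KO and 26.8 ± 2.41 CPM in WT, and Mapk3, which encodes the kinase ERK1, 153 ± 9.82 and 132 ± 16.1 CPM (SD, n = 4). Without WT replicates 1 and 2 their log2 fold changes were 0.17 and 0.094, in place of 0.27 and 0.21. In that setting no member of any of the 9 lists reached an unadjusted p under 0.05, where 115 of all genes did. The list medians lay between -0.052 and 0.028. With all 8 libraries 6.52% of all genes had an edgeR unadjusted p under 0.05. Of the list members, 1 of 10 cyclin E, A and B partners was lower in KO and 1 of 5 other inhibitors higher. Of 20 Myc target genes 1 was higher and 2 lower. In KO, 2 of 18 p53 genes and 1 of 25 signalling genes were higher, and the other lists had none.

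The authors' deposited table, which gives its own comparison of KO with WT, had 0.447 as its lowest false discovery rate over all genes. For the 10 genes the log2 fold changes in the authors' deposited table ran from -0.38 for Rb1 to 0.39 for Ccnd3, with false discovery rates from 0.447 to 0.973.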

How the data were processed

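The 8 mRNA libraries of bone marrow-derived macrophages were grouped by the genotype label, 4 KO and 4 WT, with replicate numbers given in accession order. Nothing in the labels pairs a KO with a WT library. The authors deposited raw read counts per gene, from reads that STAR aligned to the UCSC genome mm10, and featureCounts gave the reads on genes, per the file headers. The submitters' processing notes also name STAR and mm10. The deposited log2 FPKM values are the authors' length- and library-scaled fragment values on a log2 scale, per the file headers. The authors' own log2 fold changes, p-values and false discovery rates are used as deposited. For their tool, all versions, the strand setting and any filter on low counts, nothing is given in the sources used here. The mapping percentages, deposited by the authors, come from STAR, bamutils and bowtie2 per the file headers. Per the file headers' read classes, coding reads lay mostly opposite to the annotated strand (12.7 to 14.01% of high-quality reads, against 0.09 to 0.11% on it). All deposited per-sample columns were used.

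KO and WT were compared with edgeR 4.0.16 in R 4.3.3 (quasi-likelihood test, TMM factors, two-sided), fitted to all 11541 genes, and p-values were adjusted over all genes by Benjamini-Hochberg, with calls at an adjusted p under 0.05. The default expression filter removed 0 genes. Standard errors and 95% intervals came from the F statistic. CPM are TMM-scaled, and log2 CPM used a prior count of 2. The script was tested on simulated data. No 2 libraries agreed within sampling noise (chi-square per degree of freedom 7.25 to 346.5). Alternatives were RLE and upper-quartile factors, DESeq2 1.42.0, limma-voom (limma 3.58.1), no filter, at least 1 CPM in 4 libraries, each library left out, WT replicates 1 and 2 left out, the ribosomal RNA percentage as a covariate and, chosen after seeing the data, a GC correction. For this correction, each library's deviation was smoothed (lowess, span 0.3) on the GC content of the longest GENCODE M21 transcript, known for 96.3% of genes, and used as an offset. The 10 genes, the 9 pathway lists and the marker lists were chosen with earlier results of these data known. All 10 genes are named, then up to 3 genes per pathway list with the smallest p, and for each of the 10 the nearest profile among genes that average 3 or more in log2 CPM and have no predicted or clone-type name. One gene that this rule names is not reported here. Promoter windows are those of RefSeq.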

Additional observations from a re-analysis of the deposited data

Results flagged for a closer look

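KO replicate 2 lay apart from the other KO libraries for 2 genes. Its Ccnd1 value was 757 CPM, where the other KO libraries had 818 to 829 CPM and WT had 779 to 839.9 CPM, and the gap took 0.85 of the KO range. Its Cdkn2c value was 69.5 CPM, where the other KO libraries had 81.9 to 83.8 CPM and WT had 65.3 to 86.6 CPM, and the gap took 0.87 of the range. Both pass Dixon's 95% limit for 4 samples, which chance passes in about 1 in 20 groups, and 20 groups were examined (10 genes in KO and in WT). KO replicate 2 had 2.71% ribosomal RNA reads and a first-component score of 7.26, where the other KO libraries had 7.16 to 8.24% and -22.7 to -15.0. Their part in these values was not tested.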

How the results depend on the processing

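Of the genes called, 0 in the comparison as reported, DESeq2 called 1 (1178 at an unadjusted p under 0.05), and every other setting run called 0. That gene, named after its value was seen, is Cxcl16, a chemokine gene with 87.1 ± 2.49 CPM in KO and 74.2 ± 2.62 CPM in WT (SD, n = 4, DESeq2 adjusted p = 0.0456, edgeR adjusted p = 0.404). The count at an unadjusted p under 0.05 was 752 in the comparison as reported, 535 with limma-voom and 115 without WT replicates 1 and 2. Leaving out 1 library at a time gave 0 calls each time, while the unadjusted count ran between 134 and 5207, the most without WT replicate 4. None of the 10 genes passed under any of the 17 settings, and the lowest adjusted p was 0.0877. Ccnd3, Cdkn1b and Rb1 each had that edgeR value without WT replicate 4, the setting with 5207 genes at an unadjusted p under 0.05. One of the 17 settings, no filter, repeats the comparison as reported, since the default filter removed 0 genes.

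Ccnd2, Ccnd3, Cdkn1b and Rb1 kept their direction in all 17 settings. With 1 library left out the log2 fold change ranged from -0.023 to 0.023 for Ccnd1, -0.30 to -0.12 for Ccnd2, 0.25 to 0.57 for Ccnd3, 0.13 to 0.30 for Cdk4, -0.035 to 0.066 for Cdk6, 0.056 to 0.14 for Cdkn1a, -0.32 to -0.14 for Cdkn1b, 0.020 to 0.16 for Cdkn2c, -0.50 to -0.26 for Rb1 and -0.084 to 0.033 for Myc. Upper-quartile factors turned Ccnd1 to 0.032 and Myc to 0.024, and moved the median over all genes from -0.0047 to 0.032. Without WT replicates 1 and 2, Cdk4 turned to -0.0041, Cdkn2c to -0.062 and Myc to 0.063. The ribosomal RNA covariate turned Cdkn2c to -0.019 and Myc to 0.073, and the GC correction turned Cdkn1a to -0.095 and Cdkn2c to -0.21. The cause was not tested. The lowest count among the 10 genes, for Ccnd2, was 471 reads in a library. There were 4 libraries per group, and a pair of the WT libraries stood apart. What part depth or the spread between libraries had in these results was not tested.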
